A study of Mus musculus with 9 samples.

Results

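The Hedgehog receptors and Gli factors are 9 genes chosen by symbol: Ptch1, Smo, Sufu, Cdon, Boc, Gas1, Gli1, Gli2 and Gli3. Each symbol matched 1 row of the deposited table of 21210 genes, and all 9 members passed the filter on low values. They are described across 9 RNA-seq libraries, 3 in each of 3 groups, made from the lateral cortex of the C57BL/6 mouse embryo on embryonic day 14.5. Every embryo carried reporters of both Btg2, a gene switched on in progenitors committed to making neurons, and Tubb3, a neuronal beta-tubulin. The proliferating progenitors were the cells negative for the Btg2 reporter (named red in the sample titles). Differentiating progenitors were the cells positive for it, and neurons were the cells positive for the green Tubb3 reporter. Titles call the Btg2 reporter red while the genotype label gives green for both reporters, and the groups follow titles and cell type labels. Each library came from pooled sorted cells, with embryos drawn from more than 1 litter, after meninges and ganglionic eminences had been removed.

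Hedgehog ligands signal by binding Patched receptors, which otherwise hold the membrane protein Smoothened inactive. Cdon, Boc and Gas1 are cell-surface co-receptors that bind the ligand together with Ptch1. Active Smoothened works at the primary cilium to release Gli transcription factors from Sufu, which restrains them in the cytoplasm. Gli2 acts mainly as an activator, Gli3 is largely processed into a repressor, and Gli1 is an activator whose own transcription is a standard readout of the pathway, as is that of Ptch1. In the dorsal forebrain Gli3 repressor is known for limiting ventral gene programmes and for patterning the early cortex.

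On average 7 of the 9 genes were highest in proliferating progenitors, lower in differentiating progenitors and lowest in neurons, while Ptch1 and Sufu had other profiles. Values are normalised read counts as the authors deposited them, given for replicates 1, 2 and 3 of a group in that order. Log2 changes are on the log2(value + 1) scale ± SE, with p-values from limma adjusted by Benjamini-Hochberg over the 15828 genes tested and a threshold of 0.05. In bulk libraries, fewer cells of a type and less RNA per cell cannot be told apart.

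The sort and the depth were as follows. Btg2 stood at 7032 to 9336 normalised reads in proliferating progenitors, at 14022 to 19983 in differentiating progenitors and at 2645 to 3390 in neurons, and Tubb3 at 1158 to 2511, 9711 to 13097 and 39932 to 50230 in the same order of stages. Normalised totals lay between 17531558 and 22076409 per library, with the 3 neuron libraries highest, and the estimated reads behind them between 12657785 and 27595511. Summed radial glia markers, all 9 of those listed, lay at 107682 to 125023, 49524 to 72002 and 6228 to 7580 by stage, and 7 of 9 neuronal markers in the table at 2284 to 6473, 35178 to 42203 and 136113 to 166910. Markers of other cell types differed between the stages too. All 8 endothelial and mural markers summed to 583 to 1212, 323 to 348 and 64 to 107 by stage, and all 7 red blood cell genes to 102685 to 255832, 212 to 2022 and 190 to 273. The 8 of 9 meningeal markers in the table summed to 1154 to 2505, 2311 to 2641 and 798 to 1023, with 0, 1 and 3 of them at 0 in every library of the stage. Zic1 gave most of that sum in differentiating progenitors, at 2513, 2346 and 2197, and Dcn was also higher there. Col1a1 and Col1a2 ran the other way, at 62 to 639 and 58 to 712 in proliferating progenitors, against 5 to 43 and 5 to 22. Twist1, Aldh1a2, Foxc2 and Lum stood at 31 reads or fewer in every library. All 6 microglial markers summed to 155 to 188, 76 to 107 and 26 to 36, with 1 at 0 in all neuron libraries, all 5 oligodendrocyte lineage markers to 267 to 302, 177 to 301 and 22 to 32, with 2 at 0 in all neuron libraries, and all 10 interneuron and ventral markers to 93 to 1102, 471 to 3055 and 6985 to 8103. Dlx1, Dlx2, Dlx5, Dlx6, Gad2 and Gsx2 fell from replicate 1 to replicate 3 in both progenitor groups. For Dlx1 the values were 460, 122 and 30, then 1568, 793 and 234. Gad1 and Lhx6 did not fall in this way in differentiating progenitors, and Lhx8 and Nkx2-1 stood at 6 reads or fewer in every library. The 6 Cajal-Retzius markers summed to 717 to 902, 1749 to 1987 and 17990 to 21057, and the 7 intermediate progenitor markers to 22205 to 26388, 55517 to 71053 and 9518 to 11808. The part of these cells in the results below was not tested. Among differentiating progenitors, replicate 1 lay above both other libraries in 6 of the 9 genes and below both in 2. In neurons these counts for replicate 1 were 6 and 1, and in proliferating progenitors 2 and 5. With replicates 2 and 3 of every group alone, each call of the 9 genes held, and Gli1 was called as well in differentiating against proliferating progenitors.

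**Figure D1:**
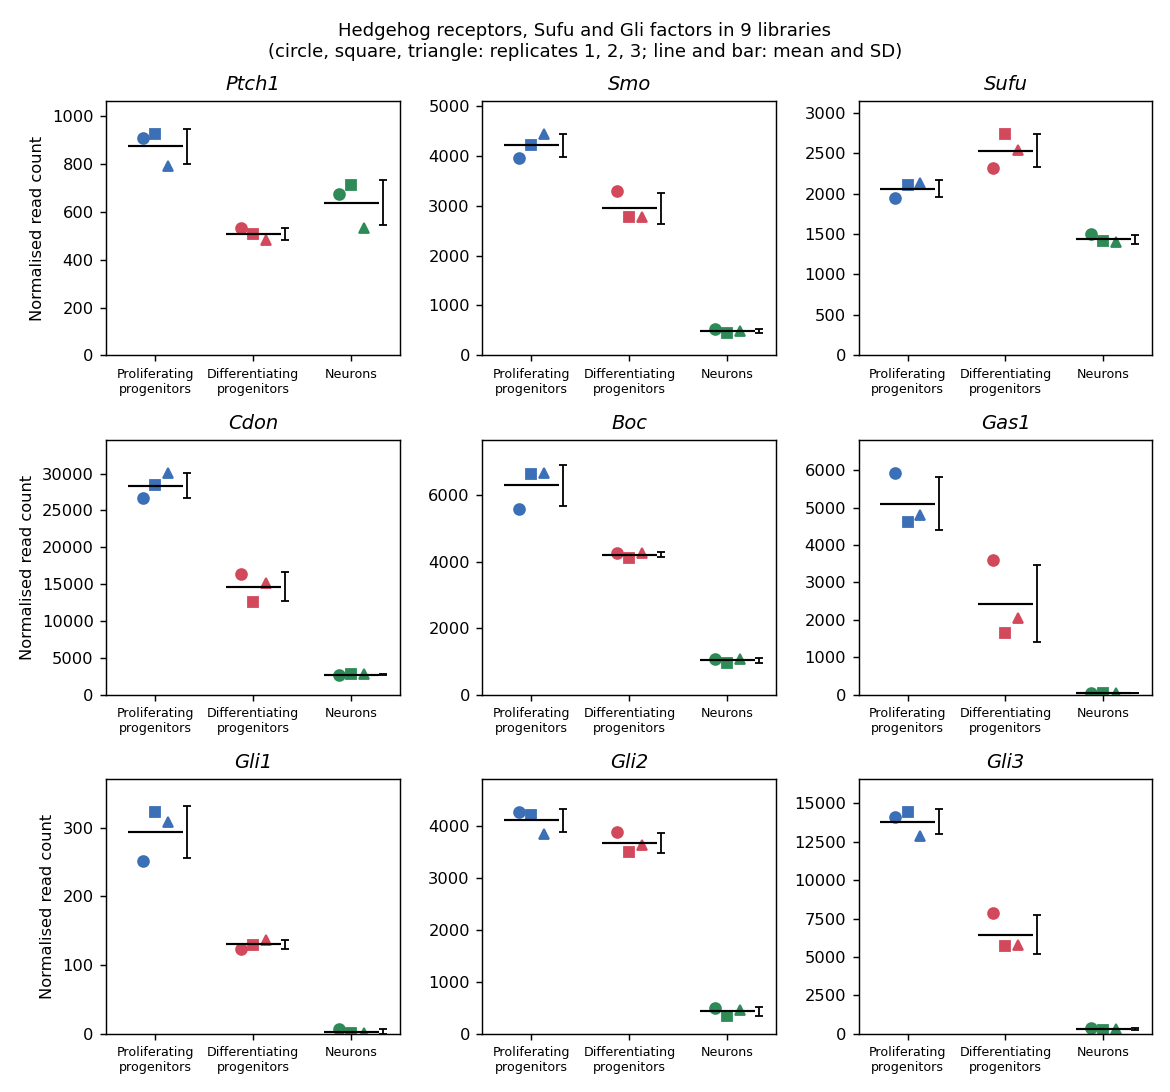
Normalised read count (linear y axes from 0, each gene on its own scale) of the 9 genes in 9 libraries, with points for replicates and a line and bar for the group mean and SD. Gli1, Gli2, Gli3, Smo, Cdon, Boc and Gas1 sit lowest in neurons, Ptch1 is lowest on average in differentiating progenitors, and Sufu is highest on average there.

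Among the receptors, Ptch1, the membrane receptor that represses Smoothened, had a level that was lower in differentiating progenitors than at either side on average. Its counts were 908, 926 and 790 in proliferating progenitors, 531, 506 and 481 in differentiating progenitors, with 674, 711 and 533 in neurons. The differentiating progenitor libraries all lay below the proliferating progenitor libraries, and all 3 neuron libraries lay above the differentiating progenitor libraries, replicate 3 of the neurons only just. Ptch1 fell in differentiating progenitors relative to proliferating progenitors (log2 change -0.79 ± 0.13, adjusted p = 0.00204). In neurons against differentiating progenitors its log2 change was 0.33 ± 0.13, which did not pass the test (adjusted p = 0.0538). It passed with replicate number as a block (adjusted p = 0.00305) and without neuron replicate 3 (log2 change 0.45, adjusted p = 0.0115), and was 0.11 when the libraries were rescaled to equal totals (adjusted p up to 0.464 over 17 alternatives). Neurons held less Ptch1 than proliferating progenitors (log2 change -0.46 ± 0.13, adjusted p = 0.0104).

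Smo, the transducer that Ptch1 restrains, was lower at each step. It had 3964, 4225 and 4437 normalised reads in proliferating progenitors, 3297, 2768 and 2772 in differentiating progenitors, with 533, 451 and 479 in neurons. The 3 groups did not overlap. The log2 change was -0.52 ± 0.10 in differentiating against proliferating progenitors (adjusted p = 0.00569) and -2.59 ± 0.10 in neurons against differentiating progenitors (adjusted p = 1.23e-07). Between the 2 genes, per kilobase of gene, Ptch1 made up 10.7 ± 1.25% of the sum in proliferating progenitors, 9.02 ± 0.52% in differentiating progenitors and 42.9 ± 4.32% in neurons (SD, n = 3 each). The neuron libraries, at 39.0 to 47.5%, lay apart from all others, and an exact two-sided permutation test of neurons against differentiating progenitors gave p = 0.1, the smallest that 3 against 3 allows, so that no share tested here can pass 0.05, before or after adjustment.

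Sufu, the cytoplasmic inhibitor that binds Gli proteins, was the other gene with a small change over the whole course: it and Ptch1 had the 2 smallest log2 changes of the 9 in neurons against proliferating progenitors. Its counts were 1941, 2111 and 2133 in proliferating progenitors, 2319, 2738 and 2544 in differentiating progenitors, with 1502, 1414 and 1398 in neurons, with no overlap between groups. Sufu rose in differentiating progenitors against proliferating progenitors by a log2 change of 0.30 ± 0.09 (adjusted p = 0.0342). That call ended in 10 of 17 alternatives, among them 7 of the 9 sets without 1 library, with adjusted p up to 0.124 when differentiating progenitor replicate 2 was left out. In neurons Sufu fell against differentiating progenitors (log2 change -0.81 ± 0.09, adjusted p = 3.76e-05) and against proliferating progenitors (log2 change -0.52 ± 0.09, adjusted p = 0.000546). Genes called highest in differentiating progenitors by both comparisons, as Sufu was, numbered 349 of 15828 tested (2.2%).

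All 3 co-receptors fell at both steps. Cdon, an immunoglobulin and fibronectin repeat protein that also binds cadherins, was the most abundant member per length in every group. It stood at 26644, 28423 and 30041 normalised reads in proliferating progenitors, 16342, 12508 and 15076 in differentiating progenitors, with 2586, 2733 and 2751 in neurons, without overlap between groups. Its log2 change was -0.96 ± 0.11 at the first step (adjusted p = 0.000259) and -2.44 ± 0.11 in neurons against differentiating progenitors (adjusted p = 1.76e-07). Boc, its relative with the same kind of extracellular repeats, had 5576, 6640 and 6657 reads in proliferating progenitors, 4242, 4117 and 4248 in differentiating progenitors, with 1062, 948 and 1069 in neurons, again without overlap. Boc had log2 changes of -0.58 ± 0.09 (adjusted p = 0.00191) and -2.03 ± 0.09 (adjusted p = 2.14e-07) at the same steps.

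Gas1, a GPI-anchored co-receptor first known as a growth arrest gene, had the largest log2 changes of the co-receptors in neurons against either progenitor group. Counts of Gas1 were 5923, 4604 and 4802 in proliferating progenitors, 3599, 1645 and 2040 in differentiating progenitors, with 45, 36 and 32 in neurons. Replicate 1 of differentiating progenitors held 1.95 times the mean of replicates 2 and 3, and still lay below every proliferating progenitor library. Gas1 fell by a log2 change of -1.15 ± 0.27 at the first step (adjusted p = 0.0129, and 0.0525 without differentiating progenitor replicate 3). In neurons against differentiating progenitors the log2 change was -5.91 ± 0.27 (adjusted p = 2.14e-07), and 39 of 15828 genes tested (0.246%) had a lower one. Of the summed level of the 3 co-receptors per kilobase, Gas1 made up 25.4 ± 3.87% in proliferating progenitors, 21.8 ± 5.71% in differentiating progenitors and 2.15 ± 0.404% in neurons (SD, n = 3 each). Boc made up 20.7 ± 1.82% in proliferating progenitors, 26.2 ± 3.8% in differentiating progenitors and 38.9 ± 1.94% in neurons (exact permutation p = 0.1 for neurons against either group, the smallest possible).

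Of the Gli factors, Gli3 was the most abundant in progenitors and Gli2 in neurons. Gli3 had 14141, 14414 and 12888 normalised reads in proliferating progenitors, 7895, 5699 and 5748 in differentiating progenitors, with 363, 259 and 311 in neurons, with no overlap. It fell at both steps, with log2 changes of -1.11 ± 0.16 (adjusted p = 0.00096) and -4.37 ± 0.16 (adjusted p = 9.11e-08). Gli2 stood at 4268, 4216 and 3854 in proliferating progenitors, 3887, 3513 and 3645 in differentiating progenitors, with 496, 343 and 449 in neurons. The 2 progenitor groups overlapped in Gli2, and the log2 change of -0.16 ± 0.13 did not pass the test (adjusted p = 0.447, 0.195 to 0.683 over 17 alternatives). Gli2 then fell in neurons against differentiating progenitors, by a log2 change of -3.11 ± 0.13 (adjusted p = 1.49e-07).

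Gli1 was the lowest member per length in every group. Its counts were 251, 322 and 308 in proliferating progenitors, 124, 129 and 137 in differentiating progenitors, with 7, 1 and 1 in neurons. No 2 groups overlapped. In differentiating against proliferating progenitors the log2 change was -1.16 ± 0.48 and did not pass (adjusted p = 0.118). The spread behind that SE is shared with the neuron libraries: with only the 6 progenitor libraries the same change passed (adjusted p = 0.00276), as it did without neuron replicate 1 (adjusted p = 0.00257), in replicates 2 and 3 alone (adjusted p = 0.00417) and with a pseudocount of 10 (adjusted p = 0.00363). Gli1 fell in neurons against differentiating progenitors (log2 change -5.37 ± 0.48, adjusted p = 1.34e-05), a size that depends on the pseudocount (-3.46 with 10). By estimated reads, 8 in neurons against 400 in differentiating progenitors, the ratio was 0.0198, with an exact 95% interval of 0.00851 to 0.0395 that covers counting error only. Replicate 1 held 7 of the 9 normalised reads in neurons, and without it the ratio was 0.00683 (2 reads), with an interval of 0.000824 to 0.0248.

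Promoter windows, the 250 bases before the annotated start, were found in the RefSeq sequence table of build GRCm38.p6 for 7 of the 9 genes. Those of Gli3 and Gas1, which fell at both steps, and of Ptch1 and Sufu, which had other profiles, are shown for comparison, 5′ to 3′ in the direction of the gene, with matches to the GC box GGGCGG, or CCGCCC on the other strand, in capitals. The Gli3 window is chr13:15463473-15463722 on the plus strand, that of Gas1 chr13:60177536-60177785 on the minus strand, that of Ptch1 chr13:63565736-63565985 on the minus strand and that of Sufu chr19:46396646-46396895 on the plus strand.
Gli3: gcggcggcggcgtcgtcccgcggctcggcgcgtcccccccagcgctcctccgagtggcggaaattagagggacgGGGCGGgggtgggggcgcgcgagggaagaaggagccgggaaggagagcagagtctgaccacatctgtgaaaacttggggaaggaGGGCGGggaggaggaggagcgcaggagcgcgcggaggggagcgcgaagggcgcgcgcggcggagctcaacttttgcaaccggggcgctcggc
Gas1: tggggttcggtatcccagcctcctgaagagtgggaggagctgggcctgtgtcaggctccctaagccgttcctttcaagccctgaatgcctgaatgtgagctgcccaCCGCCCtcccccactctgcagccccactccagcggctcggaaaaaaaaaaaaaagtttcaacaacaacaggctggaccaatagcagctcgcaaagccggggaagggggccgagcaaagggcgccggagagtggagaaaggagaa
Ptch1: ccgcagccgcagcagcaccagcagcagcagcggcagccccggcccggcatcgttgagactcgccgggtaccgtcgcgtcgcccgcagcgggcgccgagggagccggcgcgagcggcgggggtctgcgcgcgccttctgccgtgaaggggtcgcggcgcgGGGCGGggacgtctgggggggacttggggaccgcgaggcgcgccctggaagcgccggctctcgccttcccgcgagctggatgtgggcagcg
Sufu: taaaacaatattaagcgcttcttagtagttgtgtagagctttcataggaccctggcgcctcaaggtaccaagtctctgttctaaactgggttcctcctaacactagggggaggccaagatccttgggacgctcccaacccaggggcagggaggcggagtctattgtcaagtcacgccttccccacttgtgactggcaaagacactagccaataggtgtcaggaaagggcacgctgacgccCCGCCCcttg
A GC box was present in 5 of the 7 windows (Gli2, Gli3, Gas1, Ptch1 and Sufu), against 32.7% of all 32851 windows, and absent in Smo and Cdon. The Gli binding motif GACCACCCA or its reverse complement (TGGGTGGTC) was found in 0 of the 7 windows and in 0.225% of all windows, which says only that these letters are not there. CG dinucleotides numbered 41 in the Ptch1 window and 34 in that of Gli3, against a median of 6 over all windows, and 1.09% and 3.53% of windows held at least as many. The Cdon window held 1 CG dinucleotide, and those of Gas1 and Sufu held 10 and 8. An association of these features with the profiles was not tested.

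**Figure D2:**
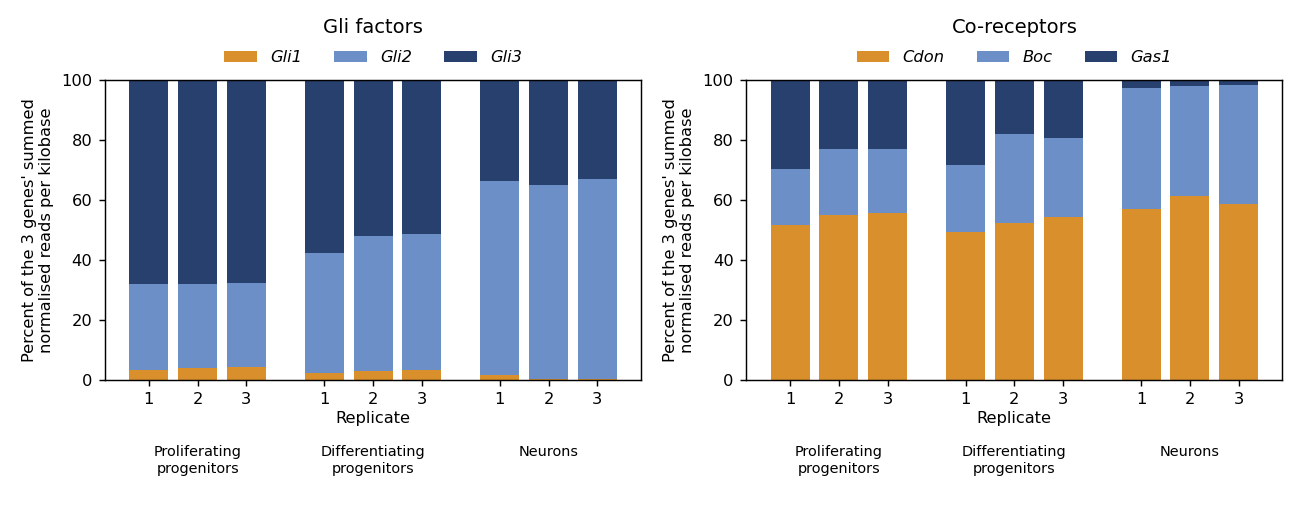
Share of each gene (y axis, percent) in the summed normalised reads per kilobase of the 3 Gli factors (left) and the 3 co-receptors (right), 1 bar per library. Gli3 makes up 67.7 to 68.3% of the Gli sum in proliferating progenitors, 51.4 to 57.9% in differentiating progenitors and 34.0% on average in neurons, and Gas1 1.78 to 2.58% of the co-receptor sum in neurons.

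The make-up of the Gli transcripts differed by stage. Per kilobase of gene, Gli2 made up 28.3 ± 0.432% of the 3 Gli genes in proliferating progenitors, 43.4 ± 3.13% in differentiating progenitors and 65.3 ± 1.19% in neurons. Gli3 made up 68.0 ± 0.332% in proliferating progenitors, 53.8 ± 3.56% in differentiating progenitors and 34.0 ± 0.962% in neurons (SD, n = 3 each). Neither gene's share overlapped between any 2 stages, and each exact two-sided permutation test gave p = 0.1, the smallest that 3 against 3 allows. Gli1 made up 3.68 ± 0.54% in proliferating progenitors, 2.8 ± 0.433% in differentiating progenitors and 0.755 ± 0.779% in neurons. Shares come from deposited gene lengths of 3782 bases for Gli1, 6869 for Gli2 and 9589 for Gli3, and do not move with library scaling.

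The order of levels per kilobase also changed. In proliferating progenitors it ran Cdon (3680 ± 220 normalised reads per kilobase), Gas1 (1730 ± 240), Gli3 (1440 ± 84.9), Boc (1410 ± 139), Smo (1110 ± 62.7), Gli2 (599 ± 32.8), Sufu (297 ± 15.1), Ptch1 (133 ± 11.2) and Gli1 (77.6 ± 9.94). Gas1 lay above Gli3 in all libraries, and Gli3 and Boc overlapped. Differentiating progenitors had Cdon at 1900 ± 253, followed by Boc at 943 ± 16.6, Gas1 at 820 ± 349, Smo at 779 ± 80.5 and Gli3 at 672 ± 131, where each gene from Boc to Gli3 overlapped its neighbour. Below these on average came Gli2 (536 ± 27.6), Sufu (365 ± 30.2), Ptch1 (76.9 ± 3.8) and Gli1 (34.4 ± 1.73). From Gli3 down to Gli1 no gene overlapped its neighbour, while Gas1 and Gli2 did overlap. In neurons the order was Cdon (349 ± 11.7), Boc (230 ± 15.2), Sufu (207 ± 8.06), Smo (129 ± 11), Ptch1 (97.2 ± 14.3), Gli2 (62.5 ± 11.4), Gli3 (32.4 ± 5.42), Gas1 (12.7 ± 2.25) and Gli1 (0.793 ± 0.916), and of these neighbours only Boc and Sufu overlapped. The sum of the 9 genes came to 10300 to 10600 normalised reads per kilobase in proliferating progenitors, 5440 to 7000 in differentiating progenitors and 1090 to 1160 in neurons.

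**Figure D3:**
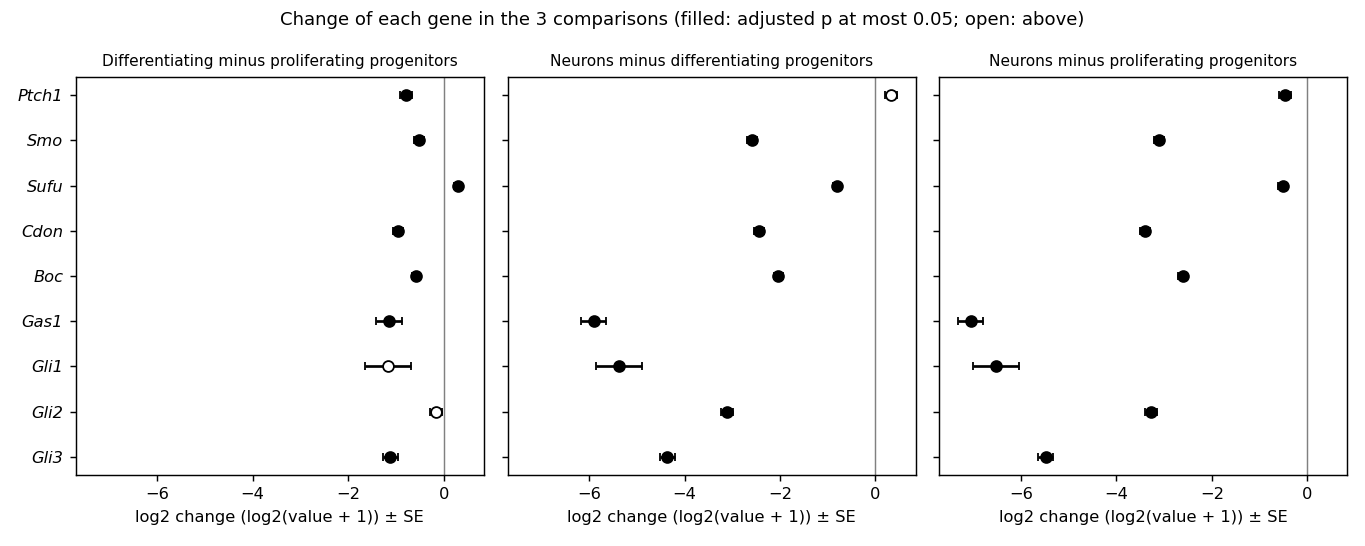
Log2 change with SE of each gene in the 3 comparisons (x axis, log2(value + 1) scale), filled where adjusted p is at most 0.05. In neurons against differentiating progenitors the changes run from -5.91 for Gas1 to 0.33 for Ptch1, the only open point of that panel.

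Read as a group, the first comparison asks what separates progenitors positive for the Btg2 reporter from those negative for it. Btg2 transcripts were present in both, at 14022 to 19983 and 7032 to 9336 normalised reads. In differentiating against proliferating progenitors 6 of the 9 genes fell (Gli3, Ptch1, Smo, Cdon, Boc and Gas1) and 1 rose (Sufu), where 24.9% of all genes tested were called, 11.1% lower and 13.8% higher. The median log2 change of the 9 was -0.79, against -0.02 over all genes. Replicate number as a block gave the same member counts, while it called 46.0% of all genes at this step and 71.3% in neurons against differentiating progenitors. The groups did not overlap in 8 of the 9 genes, Gli2 being the exception, where 37.7% of all genes tested did not overlap.

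The second comparison asks what separates neurons from the differentiating progenitors. In neurons 8 of the 9 genes fell and 0 rose in limma, where 54.0% of all genes tested were called, 26.4% lower and 27.6% higher. Ptch1 was the 1 gene that did not pass, with an unadjusted p of 0.0294. The median log2 change was -2.59, against -0.01 over all genes, and the groups did not overlap in any of the 9, where 60.7% of all genes did not overlap. In neurons against proliferating progenitors all 9 genes fell, where 63.3% of all genes were called and 31.1% were lower, with a median of -3.27 against -0.02. There too the groups did not overlap in any of the 9, as in 67.6% of all genes. Rescaling to equal library totals put the median of all genes at -0.23 for neurons against differentiating progenitors, at -0.31 for neurons against proliferating progenitors and at -0.09 for the first comparison. Under it 3353 genes were higher and 5589 lower in neurons against differentiating progenitors (4368 and 4183 as deposited), 3869 and 6605 in neurons against proliferating progenitors (5099 and 4924), and 1880 and 2254 in the first comparison (2186 and 1758). No log2 change of the 9 genes turned its sign under it.

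Gli3, Smo, Cdon, Boc and Gas1, 5 of the 9 genes, were called lower at both steps, as were 902 of 15828 genes tested (5.7%). The 2 steps share the differentiating progenitor libraries, so their values are not independent.

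The authors' deposited table, which gives ratios of group means with its own adjusted p-values, lists Gli1 at 0.44 in differentiating over proliferating progenitors (p = 2.2e-05) and Gli2 at 0.90 (p = 0.88). In the authors' deposited table Sufu has a ratio of 1.23 in that comparison (p = 0.39), and Ptch1 has 1.26 in neurons over differentiating progenitors (p = 0.17). For neurons over proliferating progenitors the authors' deposited table gives 0.73 for Ptch1 (p = 0.061) and 0.01 for Gas1 (p = 1.1e-52).

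Among the other genes of the pathway, the Hedgehog ligands Ihh and Dhh were near 0. Ihh stood at 3 to 11 normalised reads over the 9 libraries and Dhh at 0 to 1, and neither passed the filter. Of 5 tested genes of ligand lipidation and release, 1 rose (Disp2) and 1 fell (Scube3) in differentiating against proliferating progenitors, where 24.9% of all genes were called. With the block 2 rose, Scube1 being the other (adjusted p = 0.0605 without the block and 0.00515 with it). In neurons against differentiating progenitors 4 rose and 1 fell, where 27.6% of all genes were higher and 26.4% lower, with a median log2 change of 3.29 against -0.01 over all genes. Scube2, 1 of the 4, passed the filter only through its neuron libraries (17, 22 and 21 reads, against 1 to 5 in the others). With no filter 7 genes were tested, of which 4 rose and 1 fell, and the median was 2.33. Disp2, a homologue of the ligand exporter Disp1, had 4633, 4140 and 3933 reads in neurons, against 191, 259 and 265 in differentiating progenitors (log2 change 4.16 ± 0.17, adjusted p = 1.37e-07). The secreted proteins Scube1 and Scube3, of a family that carries lipid-modified ligand away from cells, rose in neurons too (log2 changes 3.29 and 4.17 against differentiating progenitors, adjusted p = 5.01e-08 and 5.23e-08). Hhat, the enzyme that palmitoylates the ligand, fell to 34, 42 and 31 in neurons, against 94, 95 and 85 in differentiating progenitors (log2 change -1.34, adjusted p = 0.000276). Disp1 and Shh are not analysed here.

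Of 16 other genes of ligand reception and Smoothened control, 1 rose and 4 fell at the first step (3 and 6 with replicate number as a block), where 13.8% of all genes were higher and 11.1% lower. Against differentiating progenitors, 5 rose and 6 fell in neurons, where 27.6% of all genes were higher and 26.4% lower. The medians were -0.08 and 0.06. With equal totals the counts in neurons were 3 and 6, with a median of -0.16. Hhip, a membrane protein that sequesters the ligand and is itself a pathway target, stood at 29, 35 and 20, then 13, 7 and 8, then 2, 0 and 3 by stage. It fell in neurons against differentiating progenitors (log2 change -2.13 ± 0.54, adjusted p = 0.0081, with -0.72 at a pseudocount of 10), while the first step did not pass (adjusted p = 0.0747, and 0.0339 with the block). Evc, a ciliary protein that binds Smoothened, fell at both steps (log2 changes -0.75 and -2.25, adjusted p = 0.00951 and 3.23e-06), as did the glypican Gpc4 (-0.66 and -0.83, adjusted p = 0.00131 and 8.45e-05). Gpc3, a glypican that binds Hedgehog, had 2, 2 and 5 reads in neurons, against 302, 151 and 180 in differentiating progenitors (log2 change -5.75, adjusted p = 9e-07, with -4.04 at a pseudocount of 10). Arrb1, a beta-arrestin, rose in neurons (log2 change 1.91 against differentiating progenitors, adjusted p = 5.98e-07).

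Of 30 intracellular genes, kinases, ubiquitin ligase parts and partners of Gli proteins, 7 rose and 4 fell at the first step, where 13.8% of all genes were higher and 11.1% lower, with a median of 0.05. These counts were 13 and 7 with the block, and 4 and 3 both without proliferating progenitor replicate 1 and without differentiating progenitor replicate 2. At the second step, neurons against differentiating progenitors, 11 rose and 6 fell (17 and 7 with the block), where 27.6% of all genes were higher and 26.4% lower, with a median of 0.18, but with equal totals 7 rose and 8 fell and the median turned to -0.04. Kif7, the kinesin that organises the cilium tip for Gli proteins, had 237, 248 and 266 reads in neurons, against 989, 933 and 1158 in differentiating progenitors (log2 change -2.03 ± 0.13, adjusted p = 1.39e-06). The protein kinase A regulatory subunits Prkar1b and Prkar2b rose in neurons (log2 changes 3.13 and 2.10, adjusted p = 3.73e-06 and 2.69e-07), and so did the casein kinase Csnk1e (0.50, adjusted p = 0.000115). Protein kinase A and casein kinases phosphorylate Gli proteins and have many other substrates.

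Of 39 genes of ciliary transport and the ciliary transition zone, 1 rose and 1 fell at the first step, where 24.9% of all genes were called. With the block 7 rose and 6 fell, where it called 46.0% of all genes, and in 6 of the 9 sets without 1 library 1 rose and 0 fell. Between neurons and differentiating progenitors 6 rose and 12 fell in neurons, where 27.6% of all genes were higher and 26.4% lower, and the medians were -0.04 at each step. The counts in neurons were 13 and 19 with the block and 4 and 18 with equal totals. Leaving out replicate 3 of the differentiating progenitors gave 5 and 5, leaving out their replicate 2 gave 7 and 5, and leaving out neuron replicate 1 gave 8 and 7, with medians of 0.04, 0.07 and 0.12. Replicates 2 and 3 of every group alone gave 10 and 16, with a median of -0.05. The larger number of lower genes thus did not hold in every set of libraries. Kif3a, Kif3b and Kifap3, which form the kinesin-2 motor of anterograde ciliary transport and also move cargo in axons, rose in neurons (log2 changes 1.35, 0.66 and 1.70 against differentiating progenitors, adjusted p = 5.96e-06, 5.47e-05 and 2.83e-05). Ift80, a subunit of the transport particle IFT-B, fell in neurons (log2 change -1.47, adjusted p = 2.72e-06).

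Of 10 genes in the table known as Gli targets in other tissues, beside Gli1 and Ptch1, 7 were tested. Of these 1 rose and 1 fell at the first step (2 and 4 with the block), where 24.9% of all genes were called. Neurons had 1 that rose and 5 that fell against differentiating progenitors, where 54.0% of all genes were called, with a median of -2.72 (-1.71 at a pseudocount of 10 and -1.23 with no filter). None rose in neurons with equal totals, without the trend, with only the 2 groups compared, or in any of 5 sets without 1 library (proliferating progenitor replicate 3, differentiating progenitor replicates 2 and 3, neuron replicates 1 and 3), while 5 fell in each. Ccnd1, cyclin D1, had 64, 66 and 64 reads in neurons, against 1897, 1700 and 1752 in differentiating progenitors (log2 change -4.76 ± 0.15, adjusted p = 5.01e-08), and Ccnd2 fell there as well (log2 change -2.72, adjusted p = 8.5e-05). Olig1 was at 0 in all 3 neuron libraries, with 26, 18 and 25 reads in differentiating progenitors. Foxa2, Nkx2-1 and Nkx6-2, transcription factors of ventral neural progenitors, stood at 13 reads or fewer in every library and did not pass the filter.

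**Figure D4:**
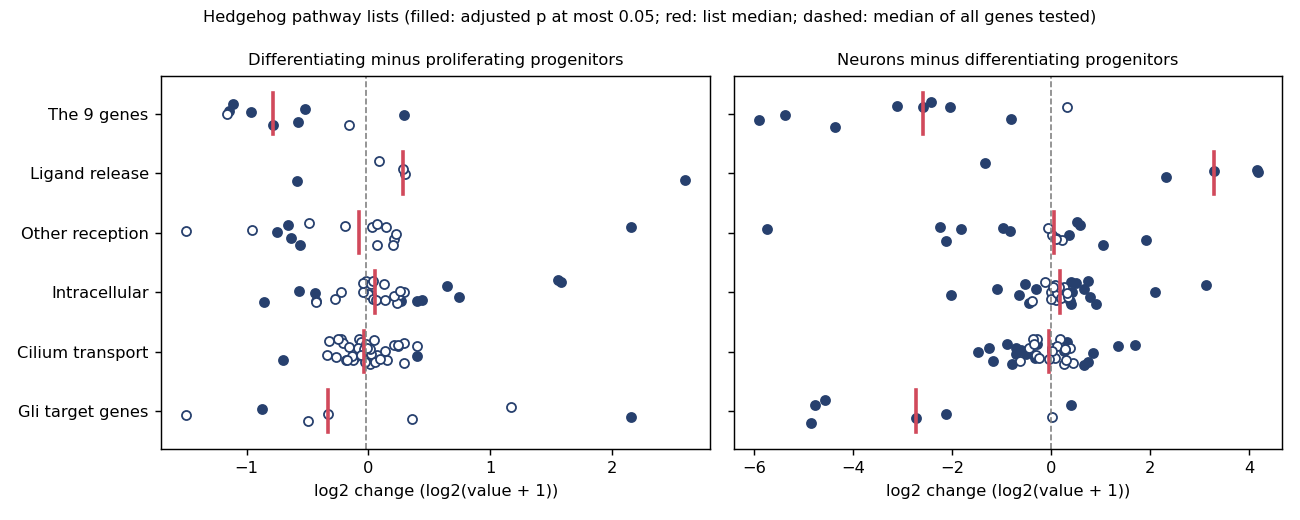
Log2 change (x axis) of the 9 genes and of 5 lists of other pathway genes, 1 point per tested gene, filled where adjusted p is at most 0.05, with list medians in red. The reception and target lists share 2 genes, Hhip among them. In neurons against differentiating progenitors the medians run from -2.72 for Gli targets to 3.29 for ligand release.

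Genes with profiles most like each member were found by Pearson's r of log2(value + 1) over the 9 libraries, among 12067 other tested genes with a group mean of at least 100. The points fall into the 3 groups, so r mainly compares group levels and is given as a description. Among the nearest genes were Mcm3 (r = 0.9968) for Gli1, Ttc23 (0.9994) and Snx33 (0.9993) for Gli2, and Nr2e1 (0.9994) and Lrrc1 (0.9988) for Gli3. For Smo they were Lrrc1 (0.9997) and Swap70 (0.9995), for Cdon Ttyh1 (0.9991) and Obsl1 (0.9989), for Boc Erbb2 (0.999) and Gca (0.9986), and for Gas1 Dusp16 (0.9989). Sufu was nearest to Ankrd6 (0.9946) and Ezr (0.9919). The profile of Ptch1 had the least close nearest gene of the 9, Stc1 (0.9845).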

How the data were processed

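Poly-A RNA of sorted cells was made into strand-specific libraries, per the labels' protocols. The submitters' processing notes name build mm9, DESeq 1.8.1, bedtools 2.11, BWA and CASAVA 1.8.0, without the step each did. The deposited score per gene and library is a normalised read count rounded to whole numbers, for gene models of Ensembl version 61 per the file headers. The counting's strand setting and the normalisation method are not given in the sources used here. From the whole numbers that occur among low values, a size factor per library was estimated. It is not exact and was used for depth, for the estimated reads and intervals of the Gli1 ratio, and for the simulated data. The authors also deposited gene lengths, ratios of group means (folds) and adjusted p-values.

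Values were tested as log2(value + 1) with limma 3.58.1 (R 4.3.3, trend by intensity). A single fit held the 3 group means over the 9 libraries, which left 6 residual degrees of freedom. A gene entered if 3 or more libraries had a value of 10 or more. Tables were made in Python 3.11.15 with pandas 2.3.3. The fit was tested on simulated data with libraries that were not paired and a common spread for all genes. In each comparison 50 genes per fold change were altered among 15828, while 24.9 to 63.3% of genes were called in the real data. The shares recovered and the false calls therefore need not hold for the real data. Over the 3 comparisons the fit recovered 98 to 100% of 4-fold changes and 74 to 90% of 2-fold changes up or down. Of 1.5-fold changes it recovered 14 to 22%. False calls made up 2.8 to 7.24% of its calls. P-values measure the spread between 3 pools per group, which in the main fit includes differences shared by libraries of equal replicate number. Alternatives were another pseudocount, no filter, trimmed mean of M values factors, equal totals, no trend, other sets of libraries and the replicate block.

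Members, lists and tests were chosen with earlier results of these data known. Named genes are the 9 members, up to 4 genes per list with the smallest adjusted p plus Shh, Hhip and Kif7, and the 2 nearest profiles per member. Some genes that this rule takes are not reported here. Ihh, Dhh, Disp1, Scube2, Foxa2, Nkx2-1 and Nkx6-2 were named after their values were seen, to complete counts. So were the single meningeal and ventral markers. The libraries' replicate numbers pair them: deviations from group means correlated at r = 0.507 to 0.767 across genes in 9 of 9 pairs with equal numbers, and at -0.64 to 0.428 in the others. Values with that block are given where it changes a call or moves a count by over 1.5 times. In GENCODE M21, exons of Gli1 overlap those of Arhgap9 (62 bases) and Gm47200 (265), those of Gas1 overlap Gm48488 (589) and those of Gli3 overlap Gm6556 (188), all on the opposite strand, and reads there could be shared if counting ignored strand.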

Additional observations from a re-analysis of the deposited data

How the results depend on the processing

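Recomputed under 17 alternatives, every call of the 9 genes in neurons against either progenitor group kept its direction and side of the threshold, with the exception of Ptch1 in neurons against differentiating progenitors. There 1 of the 9 genes was higher with a replicate block and 0 to 1 in sets without 1 library. In differentiating against proliferating progenitors the number of the 9 that were higher was 0 with equal library totals, without the intensity trend and with only the 2 groups compared, and 0 to 1 in sets without 1 library, all through Sufu. The calls of Gli3, Ptch1, Smo, Cdon and Boc held in 17 of 17, and that of Gas1 in 16. Over all genes in this comparison, the replicate block called 7282 (3793 higher, 3489 lower), replicates 2 and 3 alone gave 2649 lower, and sets without 1 library gave 1076 to 1864 lower, against 1758. The fewest lower genes came without differentiating progenitor replicate 2 (1076), differentiating progenitor replicate 3 (1108) and proliferating progenitor replicate 2 (1114). The block changed no other call of the 9 genes than that of Ptch1. Among the other pathway genes named, it added the first-step calls of Ccnd2, Kifap3, Kif7, Scube1, Gpc3 and Hhip. The causes were not tested. Depth limits Gli1, Hhip, Gpc3 and Olig1 in neurons, at 7 reads or fewer per library.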
